A study of Rattus norvegicus with 6 samples.

Results

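The genes described here are 200 genes that were slightly higher in every library of rat aortic smooth muscle cells (RASMCs) given CitH3+dsDNA than in every control library. They were chosen by the measured counts themselves, out of 22574 gene symbols. A gene was taken if it had 200 or more counts in all 6 libraries, if its lowest CPM (counts scaled to a library total of 1000000) among the 3 CitH3+dsDNA libraries was at least 1.05 times its highest CPM among the 3 Ctr libraries, and if the ratio of the group means was below 1.4142. Of the 8160 genes with 200 or more counts in all libraries, 391 passed, and the 200 with the widest gap between the groups were kept. Since the counts of both groups chose these genes, their separation between the groups is a description and no test of it is given.

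RASMCs are primary cells cultured from Sprague-Dawley rat aorta. In the CitH3+dsDNA group the cells received citrullinated histone H3 (0.03 μM) and double-stranded DNA (300 ng/ml), which extracellular traps are built from, and in the Ctr group they received bovine serum albumin. The duration of the challenge is not given in the sources used here. No other treatment or genotype is stated for either group, and cells of the same rat were plated in separate wells, so the spread between the 3 libraries of a group covers wells and library preparation and not animals.

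Small shifts of this kind concern genes that a cell already transcribes. In arterial smooth muscle such genes include the regulators of the contractile apparatus, among them the kinases Rock1 and Rock2, which keep the myosin light chain phosphorylated by inhibiting myosin phosphatase. They also include the housekeeping regulators of mRNA decay, chromatin, ubiquitin transfer and membrane traffic.

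The promoters of 4 of the 200 genes show how different the sequences around their starts were. They were picked after the values were seen, Cep170 for the widest gap between the groups, and Inhba, Braf and Rock2 for the motifs they hold. Each line gives the 150 bases before the most upstream RefSeq start of the gene (GRCr8), 5′ to 3′ on the strand of the gene, with matches to the searched motifs in capitals. Cep170 lies at chr13:91285991-91286140 (minus strand), Inhba at chr17:53804509-53804658 (minus), Braf at chr4:69476932-69477081 (minus) and Rock2 at chr6:45407966-45408115 (plus).
Cep170: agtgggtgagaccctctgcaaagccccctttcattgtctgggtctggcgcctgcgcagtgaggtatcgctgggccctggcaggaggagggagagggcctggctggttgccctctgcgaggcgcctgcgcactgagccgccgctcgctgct
Inhba: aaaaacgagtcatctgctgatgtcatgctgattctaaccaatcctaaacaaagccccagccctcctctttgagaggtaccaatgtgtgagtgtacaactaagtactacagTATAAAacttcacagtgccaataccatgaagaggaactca
Braf: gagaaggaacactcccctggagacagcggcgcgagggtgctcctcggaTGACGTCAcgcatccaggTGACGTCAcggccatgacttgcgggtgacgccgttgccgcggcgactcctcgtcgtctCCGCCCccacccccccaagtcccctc
Rock2: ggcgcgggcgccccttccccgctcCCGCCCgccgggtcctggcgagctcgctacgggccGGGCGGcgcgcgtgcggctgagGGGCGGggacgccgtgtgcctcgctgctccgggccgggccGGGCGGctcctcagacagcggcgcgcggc

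The Inhba stretch has 42% G+C, 1 CpG and a TATA box (TATAAA) that begins 40 bases before the start. The Rock2 stretch has 84.7% G+C, 28 CpGs and 4 GC boxes (GGGCGG on either strand), the motif of SP and KLF factors. The Braf stretch has 17 CpGs, 1 GC box and 2 cyclic AMP response elements (TGACGTCA), which begin 102 and 84 bases before the start. The Cep170 stretch, with 68% G+C and 9 CpGs, held none of the 10 motifs searched.

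A promoter could be matched for 174 of the 200 genes (87%) and for 6736 of the 8160 genes with enough counts, with 300 bases for each gene, of which 50 lie after the start. The median G+C content was 65.3% for the 200 genes (quartiles 57.4% and 72.3%), 62% for the genes with enough counts (quartiles 56% and 68.3%) and 52.3% over all 27457 promoters. The median number of CpGs was 27, 22 and 7 in the same order. The quartiles of the 200 and of the 8160 genes overlap widely, and the difference of medians is a description without a test.

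Most motifs were about as frequent as among all genes with enough counts, with lower shares for the ETS and AP-1 motifs. The GC box was found in 68.4% of the matched genes, in 67.2% of the genes with enough counts and in 34.9% of all promoters. The TATA box stood at 6.32%, 5.92% and 14.3%, the ETS motif CCGGAAG at 13.8%, 20.3% and 9.21%, the E-box CACGTG at 12.1%, 10.4% and 6.64%, the NRF1 motif GCGCATGCG at 4.02%, 3.92% and 1.66%, and the STAT motif TTCNNNGAA at 6.9%, 6.43% and 8.64%. The NF-kB motif GGGACTTTC was in 0 of the 174 promoters, against 0.371% and 0.328%, and the AP-1 motif TGANTCA was in 4 (2.3%, against 4.6% and 7.3%). TGACGTCA was in 5 (2.87%, against 3.41% and 1.91%), namely Braf, Abce1, Skil, Ranbp6 and Cd2ap, which were picked out after the search, and the ATF4 and C/EBP motif TGATGNAA was in 3 (1.72%, against 1.84% and 3.82%). All motifs were searched on both strands, on which the E-box, TGACGTCA and the AP-1 and STAT motifs read the same, and no motif contains another. A match marks letters and not a bound site.

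The 6 libraries held between 17573905 and 18742395 counts, and no library stood apart in depth. The smooth muscle markers were all present, with the 11 genes of the list summing to 9513 to 10062 CPM after CitH3+dsDNA and 12178 to 12949 CPM in Ctr, and none of them was among the 200. In the difference between the sums of the groups Acta2, Tagln and Cnn1 weighed most, but the list did not move one way. In CPM, 4 of its 11 genes (Acta2, Tagln, Cnn1 and Smtn) lay lower in all treated libraries than in all controls and 3 (Myocd, Cald1 and Myh11) lay higher. Under the 3 other scalings the groups overlapped for Myh11, and Lmod1 lay lower as well. Myocd, which encodes a transcriptional coactivator of smooth muscle genes, stood at 38.7 ± 4.27 CPM against 17.9 ± 0.450 CPM in Ctr (SD, n = 3 each). The part of this list in the results below was not tested. Macrophage markers summed to 75.4 to 77.5 CPM against 75.5 to 78.3 CPM, with 5 of 12 genes at 10 or more counts in every library, and most of that came from Cd14 and Csf1r, while Ptprc, Itgam and Mrc1 had at most 1 count in any library. Endothelial markers summed to 59.3 to 62.3 CPM against 61.5 to 65.2 CPM, mostly Nos3, with 3 of 10 genes at 10 or more counts and Cldn5 at 0 in every library. The fibroblast and adventitial list summed to 23.4 to 26.6 CPM against 20.1 to 25 CPM, with 2 of 9 genes at 10 or more counts and Dpp4 and Cd34 at 0, and the neural and Schwann list, with 2 of 7, to 2.5 to 3.93 CPM against 2.93 to 3.44 CPM. In bulk samples of this kind, fewer cells with a transcript and less of it per cell cannot be told apart.

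Although the rule asks for a minimum of counts, the 200 genes were not especially abundant among those that met it. Their median level was 32.3 CPM, against 49.1 CPM over the 8160 genes, and 146 of the 200 lay under the latter. The range ran from 12.8 CPM for Ranbp6 to 289.9 CPM for Ddx3x. With the 8160 genes cut into 4 equal bins by level, the lowest held 76 of the 200, the next 70, the next 41 and the highest 13, and 2 genes, Ddx3x and Eif3a, lay above the 90th percentile of 234.1 CPM. CPM is not corrected for transcript length, so these positions order read numbers and not molecules.

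**Figure D1:**
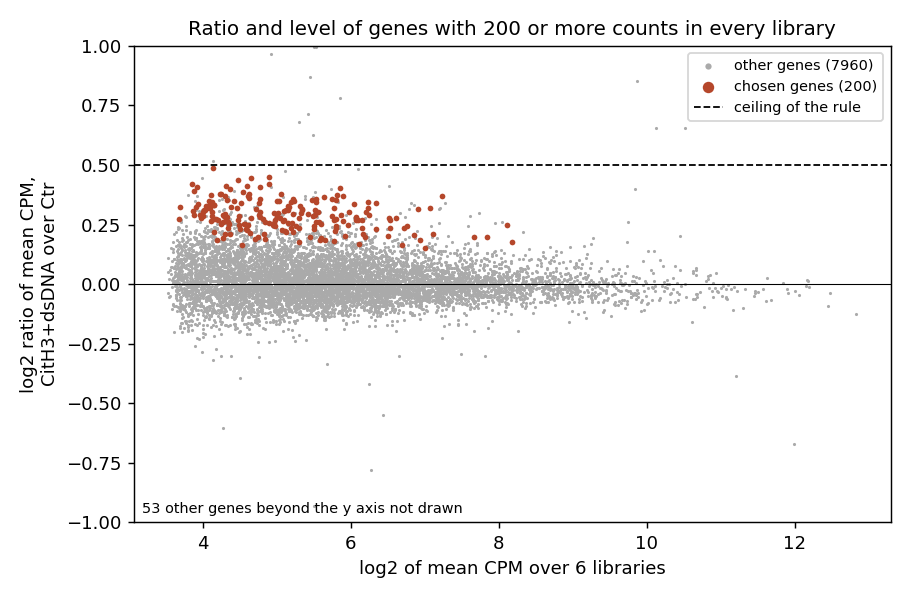
Each point is 1 of the 8160 genes with 200 or more counts in every library, by the log2 of its mean CPM over the 6 libraries (x axis) and the log2 ratio of group means, CitH3+dsDNA over Ctr (y axis). The 200 genes (red) lie mostly among the lower levels, with a median of 32.3 CPM against 49.1 CPM, and 53 other genes fall beyond the y axis.

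The differences were small by construction. Group means were 11.1% to 40.1% higher in CitH3+dsDNA, with a median of 21.7%, and 71 genes lay under a ratio of 1.2, 113 between 1.2 and 1.3 and 16 above 1.3. The gap between the lowest treated and the highest control library ran from 8.56% to 28.5% of the latter. In edgeR, after scaling by TMM, the log2 fold changes of the 200 ran from 0.13 to 0.47, with standard errors from 0.033 to 0.10.

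Together, the 200 genes took 9897, 9601 and 9771 CPM in the CitH3+dsDNA libraries and 7777, 8205 and 8284 CPM in Ctr. The group means were 9756 ± 148 CPM and 8089 ± 273 CPM (SD, n = 3 each). No treated library overlapped a control library, as the rule fixes for every gene and so for their sum.

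In edgeR's quasi-likelihood test 94 of the 200 genes were called at an adjusted p-value under 0.05, each with the higher level in CitH3+dsDNA. Over all 12591 genes tested, 1.94% were called higher, and over the 8160 genes with 200 or more counts in all libraries 1.99% were. Nothing is read from this count, because the rule used the same contrast. All 3 treated libraries lay above all 3 controls in 14% of the 8160 genes, and 4.79% of them passed the rule before the limit of 200. The opposite order was rarer, with 554 of the 8160 genes (6.79%) entirely lower after CitH3+dsDNA and 44 genes passing the mirrored rule, led by the actin-binding gene Tagln (35789, 38008 and 35702 counts against 47689, 51704 and 48468 in Ctr).

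That imbalance depended on the scaling. The rule was stated on column sums, under which the median log2 ratio of the 8160 genes was 0.010. With TMM it was -0.0090, 311 genes passed the rule and 85 the mirrored rule. With DESeq2's size factors the median was -0.012 and the counts were 298 and 93, and with upper-quartile scaling they were -0.026, 240 and 163. The 200 genes themselves all still passed with TMM and with DESeq2's size factors, and 195 passed with upper-quartile scaling. The 5 that did not were Cog3, Tax1bp1, Itsn2, Kansl1 and Ttc14, whose gaps were then 4.44% to 4.89%, just under the margin of 5%.

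**Figure D2:**
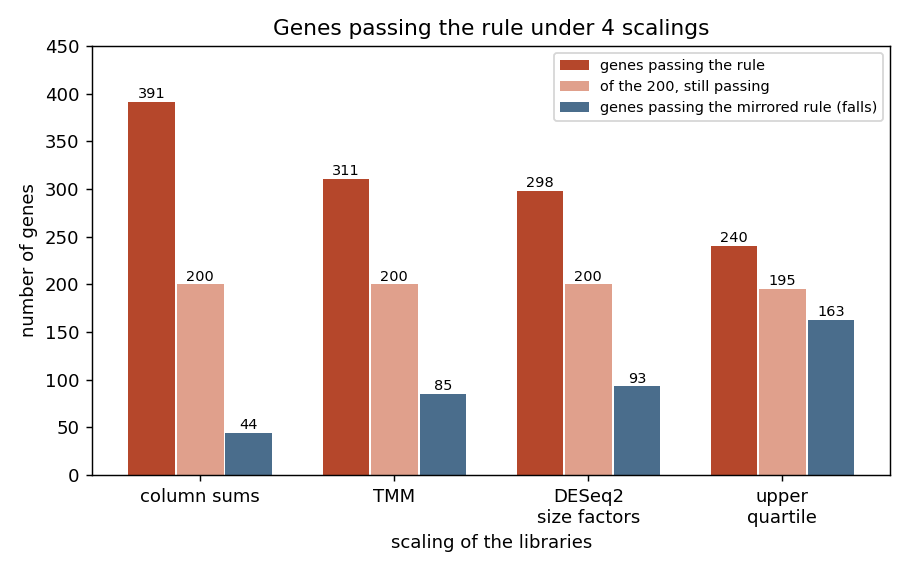
Bars give the number of genes (y axis) that pass the rule, the number of the 200 that still pass it and the number that pass the mirrored rule for falls, under 4 scalings of the libraries (x axis). From column sums to upper-quartile scaling the genes passing go from 391 to 240 and those passing the mirrored rule from 44 to 163, while 195 or more of the 200 genes still pass.

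The order of the libraries within a group, which the rule did not set, was uneven. The controls differed in the median log2 level of the 200 genes against the control mean, at -0.054 for Ctr replicate 1, 0.017 for replicate 2 and 0.031 for replicate 3. Ctr replicate 1 was the lowest control for 132 of the 200 genes, against 37.6% of the 8160 genes, and Ctr replicate 3 was the highest for 102, against 40.4%. The treated libraries lay at 0.31, 0.26 and 0.28. CitH3+dsDNA replicate 2 was the lowest treated library for 101 genes, against 37.5%, and replicate 1 the highest for 93, against 32.5%. In all 6 libraries the median over the 8160 genes stayed between -0.0044 and 0.017. Without Ctr replicate 1, the median log2 ratio of the 200 was 0.25 in place of 0.28.

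**Figure D3:**
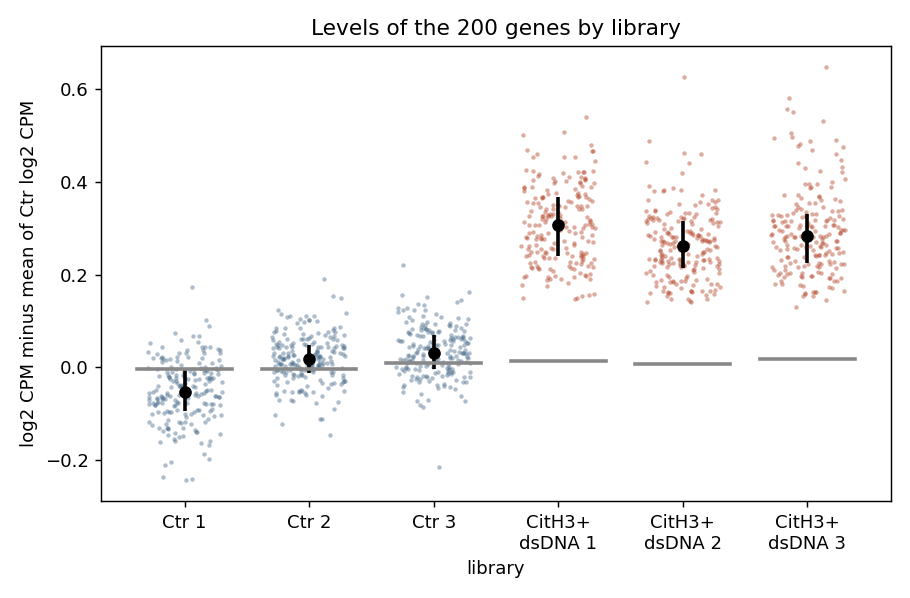
For each library (x axis), small points give the 200 genes as log2 CPM minus the mean log2 CPM of the 3 Ctr libraries (y axis), black dots and bars their median and quartiles, and grey lines the median of all 8160 genes with enough counts. The treated libraries have medians of 0.31, 0.26 and 0.28, and Ctr replicate 1 lies lowest at -0.054, while the grey lines stay within 0.017 of 0.

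The spread within groups was close to that over all 8160 genes. The rule itself limits this spread for the 200, since it asks for a gap between the groups under a ceiling on the ratio. Nothing is read from the closeness, as the 8160 genes also include the 200 and had a higher median level. The median coefficient of variation of the 200 genes was 4.48% among controls and 3.65% among treated libraries, against 4.16% and 4.01% over the 8160 genes. The lowest count of a gene in any library had a median of 507 over the 200, where counting alone gives a spread of 4.44%, and at the minimum of 200 counts it gives 7.07%, more than the margin of 5%. In none of the 200 genes were the 3 counts of a group consecutive integers, a pattern present in 1 of the 8160 genes among controls and in 4 among treated libraries.

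The gene with the widest gap was Cep170, which encodes a microtubule-binding protein of the centrosome. It had 606, 602 and 637 counts against 422, 491 and 486, or 34.4 ± 0.863 CPM against 25.2 ± 1.60 CPM in Ctr (SD, n = 3 each), and its lowest treated value lay 28.5% above its highest control. Casp2, the gene of the initiator caspase-2, followed with 331, 298 and 296 counts against 232, 243 and 245, 32.8% higher in the mean. The controls of Casp2 were tight, while CitH3+dsDNA replicate 1 stood above the other treated libraries. LOC102546572, an uncharacterised locus, had 495, 509 and 555 counts against 374, 397 and 411. Zeb2, a zinc finger factor that binds E-boxes and represses transcription, had 900, 856 and 920 counts against 723, 748 and 690 and was 27.9% higher.

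Among the next genes, Mospd2, an endoplasmic reticulum protein of membrane contact sites, had 490, 467 and 517 counts against 373, 412 and 395. Myo9a, an unconventional myosin that carries a GTPase-activating domain, had 316, 282 and 304 counts against 222, 242 and 247, 31.1% higher in the mean and with low counts in all libraries. Inhba encodes the βA subunit that forms activin A, a ligand of the TGF-β family. Its counts were 3084, 3012 and 3042 against 2111, 2642 and 2562, so that the treated libraries lay within a narrow band while Ctr replicate 1 was well below the other controls. The level was 171 ± 1.42 CPM against 132 ± 13 CPM in Ctr (SD, n = 3 each). The highest control, Ctr replicate 2, sets the gap of 19.8%.

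Braf, the RAF kinase that activates MEK, had 480, 455 and 552 counts against 356, 405 and 394. CitH3+dsDNA replicate 3 was the highest, and the mean was 33.1% above Ctr. Usp53, of the ubiquitin-specific peptidase family, had 413, 406 and 378 counts against 306, 329 and 322, and Map2, a microtubule-associated protein best known from neurons, had 1094, 1081 and 1045 counts against 810, 910 and 882. Both showed the same order of groups with controls close together. Suco, a SUN-domain protein of the endoplasmic reticulum, had 698, 622 and 701 counts against 521, 535 and 551, and Fbxo3, a substrate receptor of SCF ubiquitin ligases, had 544, 508 and 517 counts against 435, 425 and 441.

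**Figure D4:**
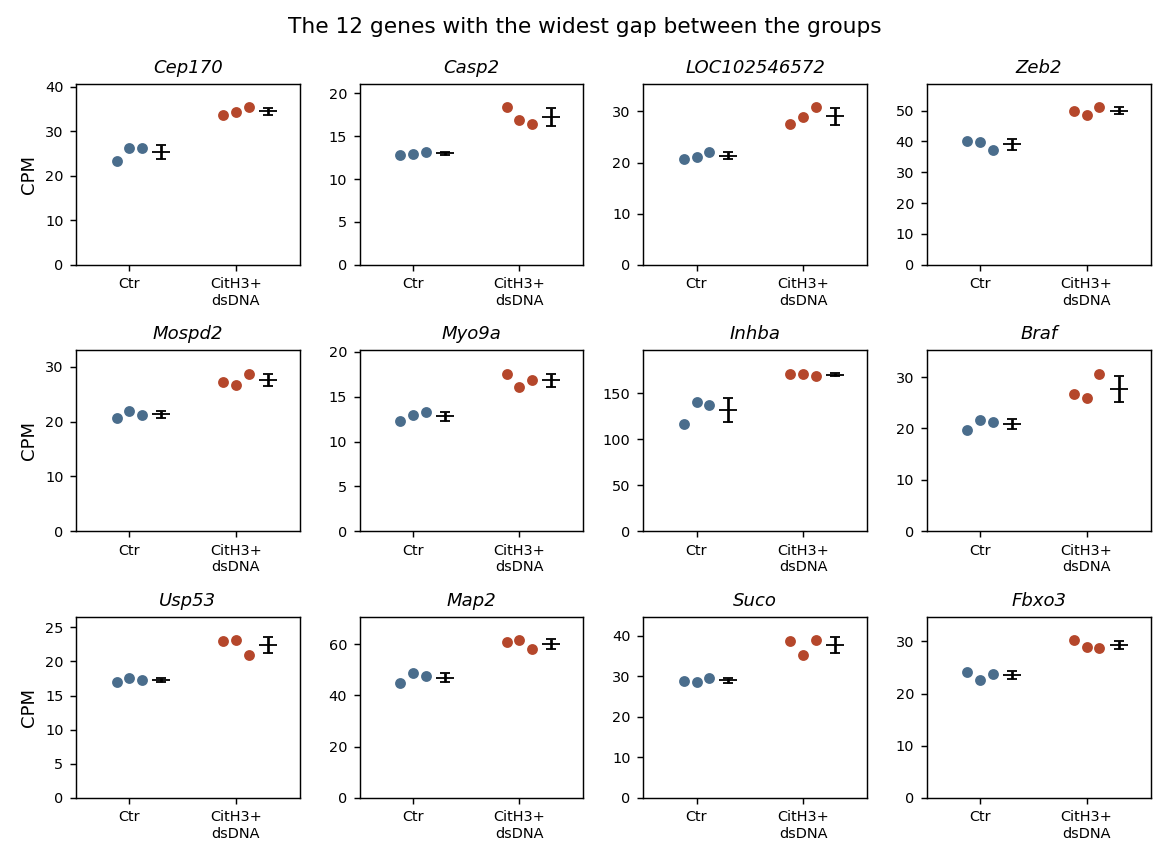
CPM (y axes, from 0) of the 12 genes with the widest gap between the groups, with a dot for each of the 3 Ctr (blue) and 3 CitH3+dsDNA (red) libraries and a black mark and bar for the mean and SD. In every panel the red dots lie above the blue ones, as the rule requires, with mean differences from 24.6% for Fbxo3 to 36.4% for Cep170.

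Among the 10 genes with the most reads, Spag9 had a gap of only 8.83% and Golim4 one of 9.84%. Ddx3x, an RNA helicase of the DEAD-box family, had 5673, 5295 and 5528 counts against 4952, 5118 and 4993, 13.1% higher, and reads could be shared with its copy on the Y chromosome. Eif3a, the largest subunit of the translation initiation factor eIF3, had 5591, 5415 and 5156 counts against 4382, 4905 and 4775, 18.9% higher. Nckap1, a subunit of the WAVE complex that drives actin branching, had 4483, 4212 and 4467 counts against 3704, 4084 and 4091. Spag9, a scaffold of JNK signaling and of motor transport, had 3973, 3711 and 3996 counts against 3329, 3575 and 3608. The differences of the latter pair were 14.5% and 14.8%, under the median of the 200 genes.

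Golim4, a protein of Golgi membranes, had 2644, 2645 and 2659 counts against 2169, 2457 and 2487, with treated libraries nearly equal and Ctr replicate 1 the lowest. Zfp91, a zinc finger protein with ubiquitin ligase activity, had 2428, 2361 and 2452 counts against 2187, 2289 and 2257 and the smallest difference of all 200 genes, 11.1%. Hif1a, the oxygen-regulated subunit of hypoxia-inducible factor, had 2381, 2268 and 2355 counts against 2046, 2218 and 2104, 13.7% higher. Rock2 and Inhba were also among the 10.

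Of the 32 gene families set by symbol, 12 held none of the 200 genes, 11 held 1 and 9 held 2 or more. The 200 genes make up 2.45% of the 8160, which is the share to set beside each family, and 145 of them belong to none of these families. The ubiquitin system held 11 of its 197 genes (5.58%), nuclear pore and transport 3 of 51 (5.88%), chromatin regulators 7 of 134 (5.22%), zinc finger genes 6 of 125 (4.8%), regulators of small GTPases 4 of 93 (4.3%) and solute carriers 5 of 133 (3.76%). MAP kinases and protein phosphatases held 4 of 161 (2.48%), the cell cycle list 2 of 87 (2.3%) and endosome, clathrin and Rab genes 3 of 139 (2.16%).

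The families with none of the 200 included the ribosomal proteins (0 of 77), the mitochondrial ribosome (0 of 67) and oxidative phosphorylation (0 of 89). Their median log2 ratios were -0.049, -0.056 and -0.033, below the median of 0.010 over the 8160 genes, and they stayed below 0 under all 4 scalings. None of the 77 ribosomal protein genes had all treated libraries above all controls, where 14% of the 8160 genes did, and 10 (13%) had them all below, where 6.79% did. Among 89 genes of oxidative phosphorylation these numbers were 0 and 15 (16.9%), and among 67 genes of the mitochondrial ribosome 0 and 11 (16.4%). Such shares were not particular to these families. Larger shares lay entirely below in cholesterol and fatty acid synthesis (25%), mitochondrial import (20.8%), the proteasome (20.5%), tubulin, kinesin and dynein (19%) and glycolysis (18.8%). The shares entirely above were 9.38%, 4.17%, 2.27%, 9.52% and 0%, in this order. The interferon list (0 of 28, median 0.0014), the NF-kB list (0 of 46, median 0.025) and the unfolded protein response list (0 of 28, median 0.035) also held none of the 200, and the signs of their medians turned under upper-quartile scaling, for the interferon list under TMM and DESeq2's size factors as well. All treated libraries lay above all controls in 5 interferon genes (17.9%), 7 NF-kB genes (15.2%) and 6 genes of the unfolded protein response (21.4%). They lay all below in 2, 0 and 1, in this order. Genes at or above the ceiling of the rule could not be among the 200. The remaining lists with none were the aminoacyl-tRNA synthetases (28 genes), ER translocation and N-glycosylation (40), COPI and COPII (44), the lysosome (38), glycolysis (16) and cholesterol and fatty acid synthesis (32).

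Of the 9 families with 2 or more of the 200, 5 had the highest medians of all 32. Their median log2 ratios over all measured genes were 0.053 for chromatin regulators, 0.051 for regulators of small GTPases, 0.046 for zinc finger genes, 0.038 for nuclear pore and transport and 0.037 for the ubiquitin system. They stayed above 0 under all 4 scalings, at 0.016, 0.015, 0.0099, 0.0018 and 0.0008 with upper-quartile scaling. The 4 others had medians of 0.0033 to 0.022, which turned below 0 with upper-quartile scaling and with DESeq2's size factors, and for all but the MAP kinases and phosphatases with TMM. No test compares these families, since the 200 were chosen on the same values.

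**Figure D5:**
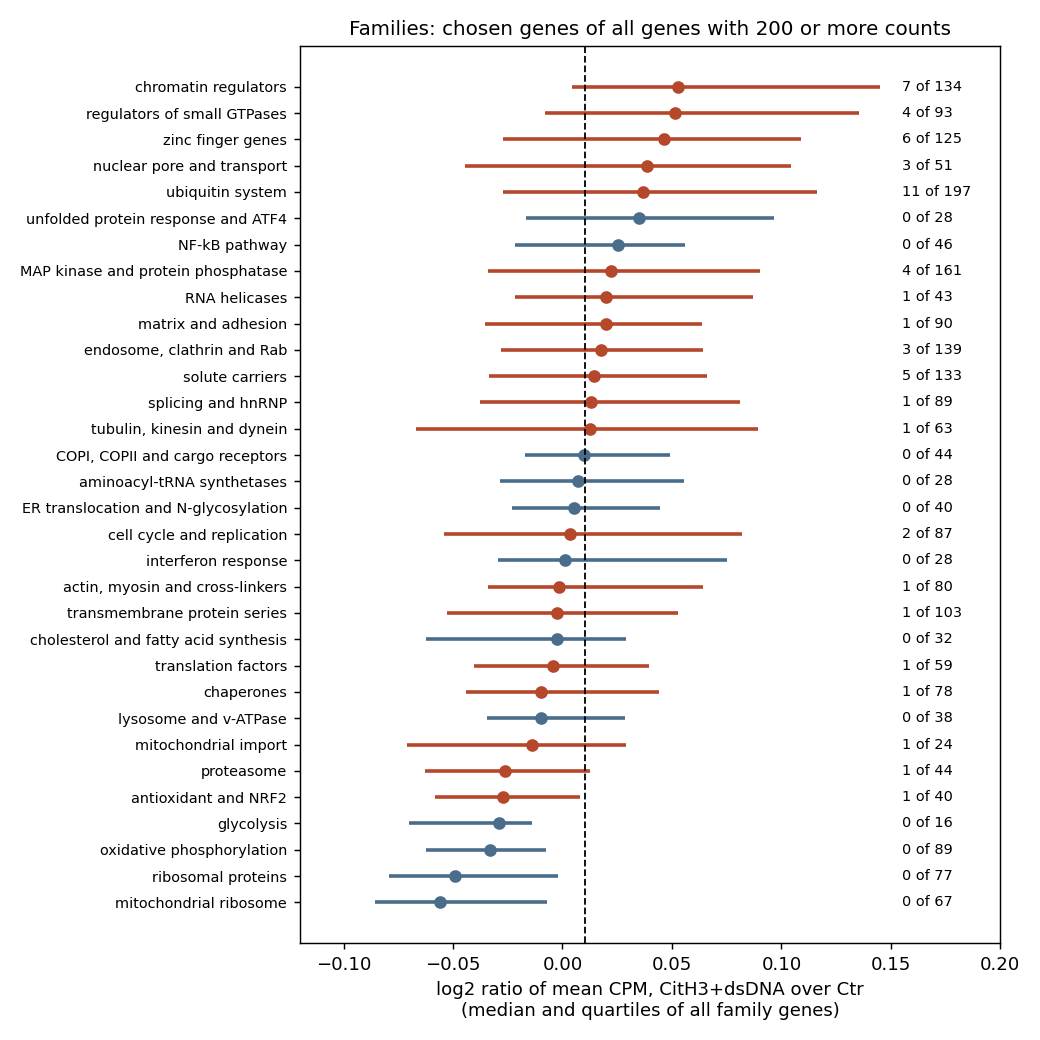
Median (dot) and quartiles (bar) of the log2 ratio of mean CPM, CitH3+dsDNA over Ctr (x axis), over all genes of each of 32 families with 200 or more counts in every library. Red families hold at least 1 of the 200 genes, blue families none, the numbers give how many of how many, and the dashed line is the median of 0.010 over all 8160 genes. Ribosomal and respiratory families lie lowest, at -0.056 to -0.033.

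In the ubiquitin system, Usp32, Cul3 and Rnf170 were among those of the 11 with the most reads. Usp32, a deubiquitinase, had 1047, 948 and 1012 counts against 736, 887 and 790, 28.8% higher, with Ctr replicate 1 the lowest. Cul3, the scaffold of BTB-type cullin ligases, had 722, 720 and 790 counts against 601, 678 and 671, 18.3% higher, and Rnf170, a RING ligase of the endoplasmic reticulum, had 530, 529 and 580 counts against 484, 495 and 486. Usp53, Fbxo3, Usp6nl, Uba6, Fbxo30, Ube3a and Fbxl17 were at 13.8% to 29.3% higher. Usp6nl falls under the family by its symbol, although its product is a GTPase-activating protein of Rab proteins.

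Of the chromatin regulators, Kdm5a, a demethylase of histone H3 lysine 4, had 1140, 1014 and 1097 counts against 809, 972 and 911, 24.9% higher. Phf14, a PHD finger protein, had 843, 804 and 861 counts against 746, 749 and 764, with both groups tight, and Setd2, the methyltransferase of histone H3 lysine 36, had 802, 731 and 740 counts against 567, 661 and 617, 27.4% higher. Phf3, another PHD finger protein, which binds RNA polymerase II, had 696, 635 and 682 counts against 531, 584 and 611. Smarcad1, Chd9 and Med14 made up the 7. Among zinc finger genes, Zc3h11a, an RNA export factor, had 781, 692 and 733 counts against 595, 590 and 672, the GC-binding factor Zfp148 had 551, 533 and 551 counts against 493, 500 and 489 and the SUMO ligase Zfp451 had 503, 491 and 498 counts against 431, 466 and 455, next to Zfp91. Zfp148 and Zfp451 were only 14% and 14.1% higher, with SDs of 0.16 to 0.53 CPM in either group.

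The kinases Rock1 and Rock2 were both among the 200. Rock2 had 2413, 2353 and 2382 counts against 1760, 2073 and 2107, or 133 ± 0.997 CPM against 107 ± 8.40 CPM in Ctr (SD, n = 3 each). Its treated libraries were nearly equal, and Ctr replicate 1 was well below the other controls. Rock1 had 820, 715 and 796 counts against 595, 700 and 693, 21.2% higher. How reads that fit both kinases were counted is not given. Arhgap29, a GTPase-activating protein of RhoA, had 1068, 1071 and 1133 counts against 854, 987 and 958, and Arhgef3, an exchange factor of small GTPases, had 312, 304 and 309 counts against 266, 247 and 276.

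A list of the pathway of these kinases, drawn up like the 11 lists below after the 200 genes had been seen and so without any test, places them among their partners. Of 11 measured genes, 3 were among the 200, Rock1, Rock2 and Ppp1r12a. Ppp1r12a, the targeting subunit MYPT1 of myosin phosphatase, had 1386, 1269 and 1293 counts against 1036, 1176 and 1148, 21.5% higher. Ppp1cb, the catalytic subunit, passed the rule outside the limit of 200, at 8.68% higher. Rhoa itself was at 0.662%, the myosin light chain kinase Mylk at 0.534% and the light chain Myl9 at -2.06% in percent difference of group means, and Dapk3, a kinase of the light chain, passed the mirrored rule at -7.96%.

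In the RAS and MAP kinase list, 3 of 18 measured genes were among the 200. Sos1, an exchange factor of RAS, had 1092, 998 and 1038 counts against 940, 968 and 943, 13.3% higher, and Frs2, the adaptor of fibroblast growth factor receptors, had 1265, 1137 and 1220 counts against 997, 1086 and 1065, 18.9% higher. The RAF kinase Araf was at -2.53%, and Mapk3, which acts downstream, stood at -0.949%. The PI3K and mTOR list held 3 of 13, Rictor, the defining subunit of mTOR complex 2 (398, 365 and 461 counts against 279, 332 and 340), Fnip1, a partner of folliculin (21.6% higher), and Pik3ca, a catalytic subunit of PI3-kinase (14.3% higher). Mtor was at -0.0743% and Rptor, of mTOR complex 1, at -1.74%.

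In the activin, BMP and TGF-β list, 3 of 18 measured genes were among the 200, and the median log2 ratio of the list was 0.089. A ratio above 1 was found for 17 of its genes and for 55.2% of the 8160, and with upper-quartile scaling for 13 of its genes and 38% of the 8160. Nothing is read from these counts, because the list was drawn up after the 200 genes had been seen. Besides Inhba, the 3 genes among the 200 were Bmpr2, the type 2 BMP receptor, with 1392, 1252 and 1324 counts against 916, 1183 and 1149, and Skil, the SMAD repressor SnoN, with 955, 898 and 913 counts against 663, 762 and 828. Bmpr2 was 26.4% higher with Ctr replicate 1 far below the other controls, and Skil was 27% higher. The receptors Acvr2a, Acvr1b and Acvr1 were at 16%, 12.1% and 11.7% and did not pass the rule, and Fst, which encodes the activin antagonist follistatin, was at 0.163%.

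In the cohesin and SMC5/6 list 4 of 12 measured genes were among the 200, and the median log2 ratio was 0.24. All 12 had a ratio above 1 under each of the 4 scalings, as did 38% to 55.2% of the 8160 genes, and nothing is read from this count because the list was drawn up around the 200. Smc6, a subunit of the complex that acts in DNA repair, had 656, 643 and 617 counts against 481, 568 and 564. Pds5a and Wapl, which regulate the release of cohesin from DNA, had 1078, 983 and 1112 counts against 843, 916 and 933 and 1139, 1047 and 1075 counts against 886, 952 and 1008, in this order, and Smc3, a core subunit, had 605, 600 and 588 counts against 459, 559 and 544. Nipbl, the loader, and Smc5 passed the rule outside the limit of 200, at 21.3% and 22.2%, while the core subunits Smc1a and Rad21 stood at 7.88% and 6.61%.

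In the list of mRNA decay and translational repression, 7 of 33 measured genes were among the 200, with a median log2 ratio of 0.11 over the list. They were Smg1, the kinase of nonsense-mediated decay (1638, 1464 and 1745 counts against 1216, 1353 and 1388), Xrn1, the cytoplasmic 5′ to 3′ exonuclease (505, 434 and 484 counts against 337, 377 and 412), the RNA-binding proteins Pum2 (21% higher), Cpeb4 (29.4%), Larp4 (25.7%) and Rc3h1 (19.5%), and the reader of methylated adenosine Ythdf3 (19.8%). Of their close relatives, Ythdf1 was at -0.725% and Ythdf2 at -4.34%, while Rc3h2 passed the rule outside the limit at 21%. Differences between relatives were not tested.

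Of 16 measured SR-related splicing cofactors, 6 were among the 200, with a median log2 ratio of 0.17 over the list. Bclaf1 had 1278, 1179 and 1134 counts against 980, 950 and 940 and was 29.2% higher, U2surp, a protein of the U2 particle, had 882, 823 and 842 counts against 690, 714 and 739, and the kinase Prpf4b had 858, 775 and 783 counts against 628, 688 and 699. Luc7l2, Luc7l3 and Pnn were 17.9%, 22.3% and 20.9% higher, and the related Luc7l was at -3.55%. Reads shared between Luc7l genes cannot be told apart in these counts.

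Golgins and tethers of the Golgi gave 5 of 29, namely Golgb1 (20.5% higher), Tmf1 (26.8%), Golim4, Cog3 (17.3%) and Trappc8 (13.8%), of which Cog3 no longer passed with upper-quartile scaling. The list of MEF2, HIF and ZEB factors gave 4 of 9, Mef2a, a factor of muscle genes (17.7% higher), Hif1a, Zeb2 and Tcf12 (14.8%), and Zeb1 passed outside the limit at 17.4%. The list of retinoblastoma and p53 regulators gave 4 of 8, Rb1 (381, 382 and 390 counts against 323, 323 and 331), Mdm4, an inhibitor of p53 (20.8% higher), Rbbp8, which acts in DNA end resection (23.3%), and Casp2. The counts of Rb1, the retinoblastoma gene, were nearly equal within each group. The circadian list gave 1 of 9, Clock, which encodes a subunit of the activating clock complex (512, 478 and 495 counts against 355, 408 and 434), with its partner Arntl at 14.1%. The median log2 ratio of the circadian list was 0.033. A ratio above 1 was found for 7 of the 9 in CPM and for 4 with upper-quartile scaling, and Cry1 and Cry2 were at -2.75% and -4.74%.

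In the nuclear pore list, 2 of 12 measured genes were among the 200. Tpr, the main protein of the nuclear basket, had 1159, 1116 and 1073 counts against 809, 907 and 997, 27.6% higher, and Ranbp2, which forms the cytoplasmic filaments, had 571, 540 and 515 counts against 429, 450 and 447, 26.7% higher. Of the scaffold genes, Nup160 was at 11.3%, Nup205 at 2.23%, Nup107 at -3.96%, Nup133 at -5.22% and Nup155 at -5.88%, and none of them passed the rule. Ranbp6, an importin relative, had 242, 256 and 251 counts against 200, 212 and 229 and is the gene with the fewest reads of the 200.

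Among membrane transporters, Slc30a4, a zinc transporter, had 1999, 1933 and 1967 counts against 1742, 1833 and 1861, and Slc30a1, another one, was 24.2% higher. Slc7a11, the cystine transporter that supplies glutathione synthesis, had 959, 871 and 964 counts against 717, 786 and 752, 28% higher, and was the only one of 40 genes in the antioxidant list among the 200. The bicarbonate transporters Slc4a4 and Slc4a7 had 401, 377 and 389 counts against 290, 358 and 352 and 302, 318 and 304 counts against 260, 263 and 259, in this order. In the endosome list, Ap1g1, a subunit of the clathrin adaptor AP-1, was 17.7% higher, Vps13b, a lipid transfer protein of the Golgi, 28% and the sorting nexin Snx13 28.1%.

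The smaller families add Cdc27, a subunit of the anaphase-promoting complex, with 1538, 1441 and 1494 counts against 1096, 1349 and 1261, next to Rb1 in the cell cycle list. In the list of kinases and phosphatases, Prkd3, a protein kinase D, had 937, 891 and 947 counts against 833, 850 and 823, Prkdc, the catalytic subunit of DNA-dependent protein kinase, was 25.8% higher, and Ppp1r12a and Pik3ca were the others. Single genes came from mitochondrial import (Tomm70), the proteasome (Psme4), translation factors (Eif3a), splicing and hnRNP (Prpf4b), RNA helicases (Ddx3x), chaperones (Dnajc13), actin and myosin (Myo9a), tubulin, kinesin and dynein (Dctn4), matrix and adhesion (Itga8), the transmembrane series (Tmem47) and the antioxidant list (Slc7a11).

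The edges of the rule were of unequal sharpness. At the limit of 200, Sbf2, Tcf12 and Efr3a were the last taken, with gaps of 8.58%, 8.57% and 8.56%, and Usp47, Ttc3 and Pura the first left out, with 8.56%, 8.55% and 8.55%. Efr3a had 1119, 1171 and 1164 counts against 886, 970 and 1065, and Usp47 had 2122, 1936 and 2004 counts against 1719, 1902 and 1874. In all, 191 further genes passed the rule.

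The ceiling fell in a sparse region. Nearest to it from below were Bcl6, a transcriptional repressor, 40.1% higher at a ratio of 1.40, Cep170 at 1.36 and LOC102546572 at 1.36. Above it stood Sp3, a factor that binds GC boxes, at 1.43 (386, 362 and 370 counts against 221, 305 and 284), then Cdk5 at 1.54 and Tgfb3 at 1.57. Of the 450 genes past the margin of 5%, 391 lay under the ceiling, 1 between 1.4142 and 1.5, 11 between 1.5 and 2 and 47 at 2 or more. At the minimum of 200 counts, Appl2 (264, 247 and 264 counts against 221, 200 and 218) and Ranbp6 were the last inside, each with a control library at exactly 200 counts, followed by Dmxl1 (318, 267 and 308 counts against 221, 222 and 246). Serinc5, Itga4 and Wrn, with 198, 194 and 193 counts in their lowest library, had gaps wide enough and were left out.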

How the data were processed

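mRNA of 6 libraries of RASMCs, 3 CitH3+dsDNA and 3 Ctr by their sample titles, was sequenced from stranded libraries. Per the study's methods, the authors mapped reads to Rnor6.0 with TopHat 2.1.1 and ran HTSeq for counts of reads on each gene. The labels list TopHat2 2.1.1, Cufflinks 2.2.1 and Cuffdiff. The deposited raw counts were taken here as those of HTSeq, which was not checked. The strand setting of HTSeq is not given in the sources used here, so reads of antisense or overlapping genes cannot be told apart. How reads that fit close paralogs were treated is not given either. All sample columns were used and no line lacked a gene name. CPM was a count divided by the column sum, in Python 3.11.15 with pandas 2.3.3.

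All genes passing filterByExpr (12591) were scaled by TMM in edgeR 4.0.16 (R 4.3.3) and went into its two-sided quasi-likelihood test, with Benjamini-Hochberg adjustment and a call under 0.05. Alternatives comprised library size alone, upper-quartile scaling and DESeq2's size factors, the Wald test of DESeq2 1.42.0, no filter, a replicate block, other margins and count minimums, and each library left out. Both steps were tested on simulated data. Library totals of 17573905 to 18742395 counts give a counting spread of 7.07% at 200 counts.

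The genes named are the 12 with the widest gap, the 3 on either side of each edge of the rule, the 10 of highest CPM and up to 4 per family. Some genes that this rule covers are not reported here. The 12 pathway lists and the printed promoters were picked after the values were seen. The 200 genes and all lists were chosen with earlier results of these data known. Promoters were taken from RefSeq (GRCr8), with 1 start per gene, the most upstream, and matched by symbol or synonym. Coordinates, lengths and proteins of Rnor6.0 were not used here.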

Additional observations from a re-analysis of the deposited data

How the results depend on the processing

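Scaling moved the number of genes passing the rule from 391 to 240 with upper-quartile scaling, and the median log2 ratio of the 8160 genes from 0.010 to -0.0090 with TMM, -0.012 with DESeq2's size factors and -0.026 with upper-quartile scaling. With a margin of 10% 144 genes passed the rule, with no margin 1087, and with a minimum of 500 counts 223. With each library left out in turn, 500 to 777 genes passed, since fewer libraries have to be separated, the most without CitH3+dsDNA replicate 2 and 729 without Ctr replicate 3.

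Of all genes tested, 277 were called by edgeR, and 164 to 357 with each library left out, the fewest without CitH3+dsDNA replicate 1. Of the 200 genes, 94 were called, and 19 to 91 with each library left out, with 19 without CitH3+dsDNA replicate 1, 57 without replicate 2, 36 without replicate 3, 25 without Ctr replicate 1 and 40 without Ctr replicate 2. Other scalings and tools gave 67 to 128. With a replicate block, 212 of all genes and 44 of the 200 were called. The numbers do not pair the libraries, since the correlations of same-numbered deviations were -0.042, 0.0083 and 0.035 across genes, which are not independent replicates. The median log2 ratio of the 200, left-out libraries being an alternative chosen after seeing the data, stayed between 0.25 and 0.31.

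Over 780 values of 65 named genes under alternatives, none fell below 0, and 778 moved by less than the spread between replicates. Of these genes 56 were among the 200, and the others lay at the edges of the rule with gaps past its margin. Their sign was therefore set by the choice of genes, and nothing is read from it. Zfp91 moved more, from 0.13 to 0.15 with library size alone and 0.12 with upper-quartile scaling. Beyond the scaling, left-out libraries and settings of the rule itself, the cause of a change was not tested. Depth limits single genes near 200 counts, where the counting spread exceeds the margin.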
